A study of Homo sapiens with 6 samples.

Results

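The transcripts described here are 10 messenger RNAs encoded by the mitochondrial genome, measured in K562 cells that had received 1 of 3 plasmids. They were chosen by identifier, not by value: MT-ND1, MT-ND2, MT-ND4, MT-ND5, MT-ND6, MT-CO1, MT-CO2, MT-CO3, MT-ATP6 and MT-CYB. All 10 were among the 25702 genes of the count tables, had counts in every library and passed the filter on low counts. K562 is an established erythroleukaemia line that grew out of a chronic myeloid leukaemia, and it was transiently transfected with the expression plasmid pCMV-HA, in which the CMV promoter drives the insert. The plasmid was empty (EV), carried wild-type MXD3, or carried the fusion STIM1::MXD3, and the labels give no further treatment. Each group had 2 libraries. The study's supplement describes them as separate transfections. The cells were 1 cell line throughout, so the p-values measure the spread between transfections of that line only.

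The human mitochondrial genome encodes 13 subunits of the respiratory chain and ATP synthase, beside its own ribosomal and transfer RNAs. Both strands are transcribed as long precursors, which are cut at the transfer RNAs into messenger RNAs, and most of these receive a short poly(A) tail inside the organelle. All other subunits of the same complexes come from nuclear genes. MXD3 belongs to the MYC, MAX and MXD network and opposes MYC, which is known to activate nuclear genes of mitochondrial biogenesis.

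Of the 10 members, MT-ND1, MT-ND2, MT-ND4, MT-ND5 and MT-ND6 encode subunits of complex I, which oxidises NADH. MT-CYB encodes cytochrome b of complex III. MT-CO1, MT-CO2 and MT-CO3 encode the core of complex IV, which passes electrons to oxygen, and MT-ATP6 encodes the proton channel subunit of ATP synthase (complex V). The ends of the coding sequences matter here because the libraries were made from poly(A) RNA. In 5 of the 10 members the annotated coding sequence stops inside a codon, and the tail supplies the missing adenines of the stop codon. The lines below give the last bases of 5 members on their own strand, with the stop bases, complete or not, in capitals, from the GRCh37 mitochondrial sequence.
MT-ND1, gene at chrM:3307-4262, plus strand: agcattccccctcaaaccTA
MT-ND4, gene at chrM:10760-12137, plus strand: attaccgggttttcctctT
MT-CO1, gene at chrM:5904-7445, plus strand: cccgtatacataaaatctAGA
MT-ATP6, gene at chrM:8527-9207, plus strand: tacctgcacgacaacacaTAA
MT-ND6, gene at chrM:14149-14673, minus strand: gagattgctcgggggaatAGG
MT-ND1 ends in 2 of the 3 stop bases and MT-ND4 in 1, whereas the other members shown hold a whole final codon. MT-ND6 is the single member on the minus strand, and its messenger RNA is known as the one that lacks a regular poly(A) tail.

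Genes without introns lie almost end to end on this genome, and pairs of them share bases. The line for MT-ATP8 and MT-ATP6 shows, in capitals, the 46 bases read in 2 frames, and that for MT-ND4L and MT-ND4 the 7 shared bases, each with 12 bases on either side in lower case. They are shown because a read that covers the capitals overlaps both genes.
MT-ATP8/MT-ATP6, chrM:8515-8584, plus strand: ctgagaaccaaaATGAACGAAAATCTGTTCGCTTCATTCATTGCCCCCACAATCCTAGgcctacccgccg
MT-ND4L/MT-ND4, chrM:10748-10778, plus strand: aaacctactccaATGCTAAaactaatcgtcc
The annotation and the handling of such reads were not stated, so counts of MT-ATP6 and MT-ND4 near these bases are uncertain. A second limit is a nuclear copy of mitochondrial DNA on chromosome 1 (GRCh37, positions 564461 to 570304), which matched the mitochondrial genome with 98.5% identity. It held all of MT-ND2, MT-CO1, MT-CO2 and MT-ATP6, 70.0% of MT-CO3 and 36.8% of MT-ND1. The other 4 members, MT-ND4, MT-ND5, MT-ND6 and MT-CYB, had no such copy at 98% identity or more over at least 150 bases. Reads that fit both places could be lost from the first 6 members, and their number was not tested.

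The libraries held 53048343 to 63835779 counts. The labels were checked with the genes of the plasmids. The MXD3 gene was at 9.33 and 11.7 CPM (TMM-scaled counts-per-million) in EV, at 2523 and 2162 CPM with MXD3 and at 1975 and 1849 CPM with STIM1::MXD3. The STIM1 gene was at 160 to 205 CPM in the libraries without the fusion and at 471 and 453 CPM with it. The 18 K562 markers, GATA1, TAL1 and globin genes among them, were each above a mean of 5 CPM. Of 13 markers of other cell types 9 were below it, and the summed level of the 13 was 337 and 412 CPM in EV, 282 and 334 CPM with MXD3 and 300 and 402 CPM with STIM1::MXD3, most of it KRT19 (159 to 273 CPM) and EPCAM (77.9 to 101 CPM). The lymphoid gene CD3D (13.4 to 19.8 CPM) and the monocyte gene LYZ (21.2 to 27.0 CPM) were also above 5 CPM in every library. MS4A1 and ALB, which mark B cells and liver, did not pass the filter on low counts.

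Together the 10 members took 2.28% of all counts in EV replicate 1 and 1.23% in EV replicate 2. With MXD3 the share was 1.19% in replicate 1 and 3.08% in replicate 2, and with STIM1::MXD3 it was 1.30% and 2.39%. The 3 groups therefore overlapped: the lowest and the highest share of the series both belonged to MXD3, and the 2 EV values lay between them. The mean share was 1.75% ± 0.75 (SD, n = 2) in EV, 2.14% ± 1.34 (SD, n = 2) with MXD3 and 1.84% ± 0.77 (SD, n = 2) with STIM1::MXD3. The differences between these means were smaller than the SD of any group. Libraries of the same plasmid differed 1.86-fold in EV, 2.58-fold with MXD3 and 1.84-fold with STIM1::MXD3. Counting error was far smaller, with a 95% Wilson interval of 3.080% to 3.089% for the highest share, an interval that covers counting error only. In bulk RNA, more mitochondrial transcripts per cell and less other RNA cannot be told apart.

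**Figure D1:**
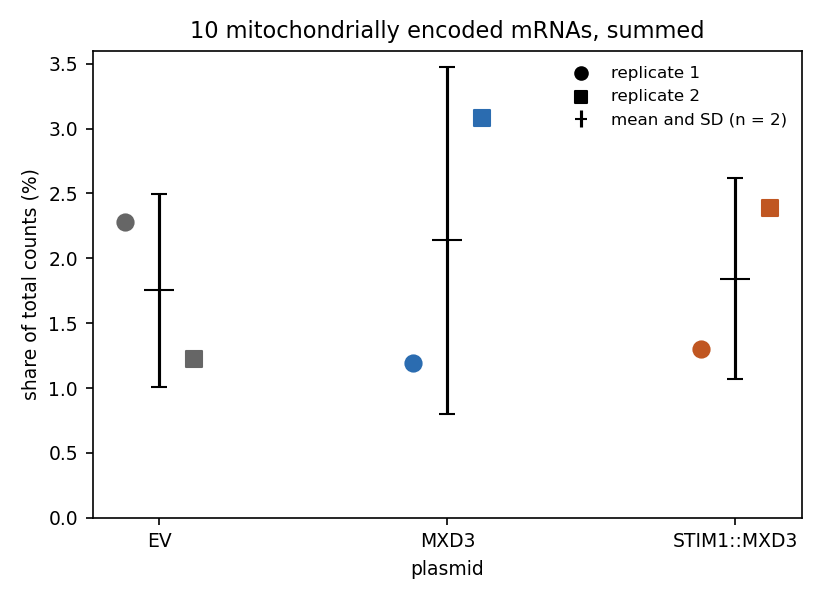
Share of total counts (%, vertical axis) taken by the 10 mitochondrially encoded messenger RNAs together, by plasmid, with circles for replicate 1, squares for replicate 2 and bars for the mean and SD of 2 libraries. The EV libraries lie at 2.28% and 1.23%, inside the range of the MXD3 libraries (1.19% and 3.08%), and replicate 2 is the lower library in EV but the higher one in both other groups.

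MT-CO1 was the most counted member in all libraries. Its level was 5583 and 2702 CPM in the EV libraries, 2960 and 5973 CPM with MXD3 and 3349 and 4753 CPM with STIM1::MXD3, with replicate 1 given first here and in the sentences that follow. MT-ND4 came next, with 5149 and 2145 CPM in EV, 2346 and 5682 CPM with MXD3 and 2823 and 4248 CPM with STIM1::MXD3. Both showed the order of the summed share, with EV high in replicate 1 and both construct groups high in replicate 2. MT-CO3 was at 3240 and 2070 CPM in EV, at 1781 and 4525 CPM with MXD3 and at 1992 and 3666 CPM with STIM1::MXD3. MT-CO2 was at 3276 and 1574 CPM in EV, at 1466 and 3956 CPM with MXD3 and at 1757 and 3013 CPM with STIM1::MXD3. These 3 subunits of complex IV took 48.2% to 52.6% of the members' counts in a library.

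Within complex I the members spanned a wide range. MT-ND2 was at 2668 and 1441 CPM in EV, 1303 and 3646 CPM with MXD3 and 1436 and 2724 CPM with STIM1::MXD3. MT-ND1 was at 477 and 305 CPM in EV, 211 and 848 CPM with MXD3 and 247 and 700 CPM with STIM1::MXD3, a spread of 4.02-fold between the MXD3 libraries that no other member reached. MT-ND5 was at 462 and 305 CPM, 266 and 730 CPM, and 275 and 549 CPM in the same groups. MT-ND6, the minus-strand gene, was the lowest member, at 50.5 and 32.1 CPM in EV, 29.4 and 101 CPM with MXD3 and 31.9 and 61.9 CPM with STIM1::MXD3. The 5 complex I members took 35.0% to 37.1% of the members' counts. Cytochrome b, from MT-CYB, was at 1544 and 757 CPM in EV, 764 and 2084 CPM with MXD3 and 815 and 1650 CPM with STIM1::MXD3. MT-ATP6 was at 1311 and 737 CPM, 737 and 2450 CPM, and 789 and 1817 CPM.

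Levels were divided by gene length to compare the members with each other. On the scale of TMM-scaled CPM per kb, MT-CO3 (mean 3672 over the 6 libraries) and MT-CO2 (3665) led and changed places between libraries, as did MT-CO1 (2737) and MT-ND4 (2708). MT-ND2 followed with 2114 and MT-ATP6 with 1919, and the latter was above MT-ND2 in replicate 2 of MXD3 and of STIM1::MXD3. Below them MT-CYB (1112), MT-ND1 (486), MT-ND5 (238) and MT-ND6 (97.5) kept this order in all 6 libraries. The MT-ND6 count was 10.5% to 13.9% of that of MT-ND5, its neighbour on the genome. This order carries the limits above: MT-ND6 may be captured poorly by its tail, and members with a nuclear copy may be undercounted. The use of strand in counting was not given, so the MT-ND6 count, and its ratio to MT-ND5, may also hold reads from the opposite strand.

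**Figure D2:**
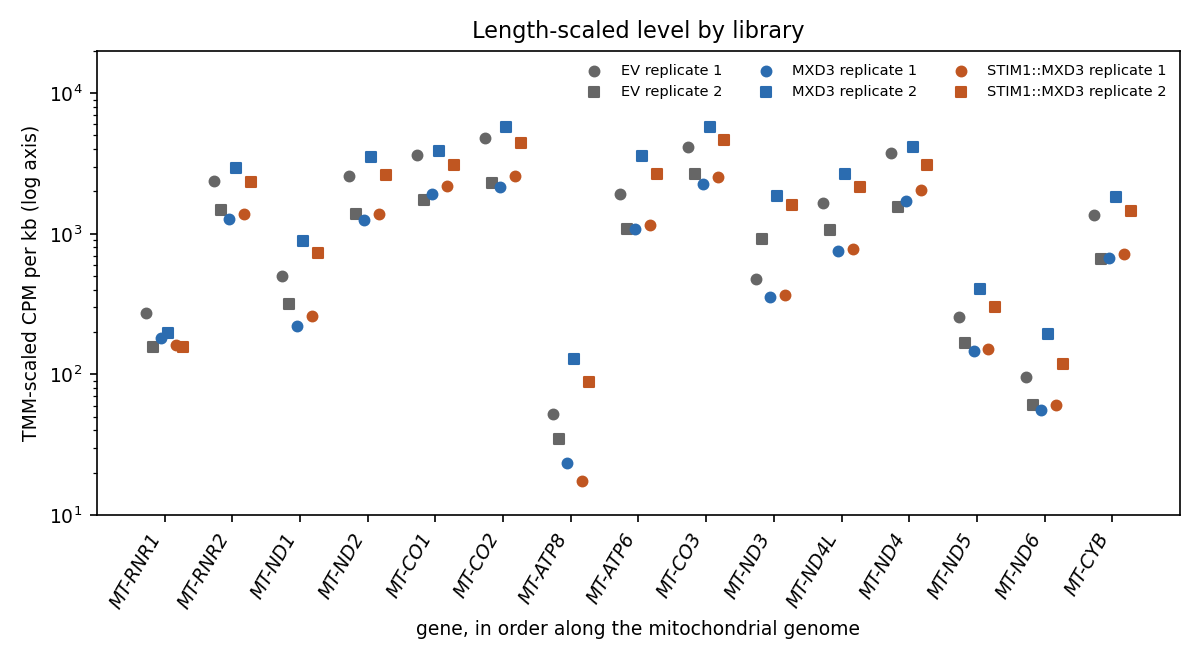
Length-scaled level (TMM-scaled CPM per kb, log axis) of the 15 mitochondrially encoded genes in the tables, in genome order, with 1 point per library, colours for the plasmid, circles for replicate 1 and squares for replicate 2. MT-CO3 and MT-CO2 lead with means of 3672 and 3665, and MT-ND6 is the lowest of the 10 members at 97.5.

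No member passed the test against EV with either construct. With MXD3, edgeR called 0 of 10 at an adjusted p under 0.05 and 0 at an unadjusted p under 0.05, beside 0.00648% of all 15431 genes called, which was 1 gene, MXD3 itself. The log2 fold changes were above 0 for all 10, with a median of 0.29 against 0.00 over all genes tested, and their SEs were 0.42 to 0.68. MT-ND6 came nearest to the threshold, with a log2 fold change of 0.66 ± 0.57 (SE; adjusted p = 0.999, edgeR quasi-likelihood test, two-sided). MT-ATP6 followed with 0.64 ± 0.61 (SE), and MT-CO1 had the smallest value, 0.11 ± 0.42 (SE). DESeq2 called 0 of 10 as well. For every member the values of the MXD3 libraries and those of the EV libraries overlapped. With the replicate number as a block, 9 of 10 members were above 0 and their median was 0.066, with MT-ND1 at 0.019 against 0.44 without it.

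With STIM1::MXD3, edgeR called 0 of 10 members against EV, also at an unadjusted p under 0.05, beside 0.00648% of all genes, again MXD3 alone. The median log2 fold change was 0.10, and 7 of 10 were above 0. MT-ATP6 was highest at 0.35 ± 0.61 (SE) and MT-ND4 lowest at -0.04 ± 0.51 (SE). With the block the median was -0.072, and 2 of 10 were above 0. Between STIM1::MXD3 and MXD3, edgeR called 0 of 10 members, with none at an unadjusted p under 0.05 either, beside 0% of all genes. All 10 values were below 0, with a median of -0.20, and MT-ND6 was lowest at -0.48 ± 0.57 (SE), while the median with the block was -0.17. DESeq2 called 0 of 10 in both comparisons. The 3 comparisons share libraries, so these directions are not independent of each other. The replicate number as a block left the members at 0 of 10 in every comparison, while all genes called rose to 0.292% with MXD3, 0.0194% with STIM1::MXD3 and 0.00648% between the constructs.

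A list of 6 RNAs used as a sign of RNA quality (MALAT1, NEAT1, RN7SK, RN7SL1, RMRP and RPPH1) was set beside these values. All 6 had log2 fold changes above 0 for MXD3 against EV (median 0.39), and all 6 were below 0 for STIM1::MXD3 against MXD3 (median -0.78), the same signs as the members had. Against EV the fusion had 0 of 6 above 0 and a median of -0.53, where the median of the members was 0.10. None of the 6 was called by edgeR in any of the 3 comparisons, with or without the block, and 0, 3 and 1 had an unadjusted p under 0.05 in the order given here, or 2, 5 and 2 with the block. RMRP and RPPH1 were below 1 CPM in every library. The part of RNA quality in the members' values was not tested.

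**Figure D3:**
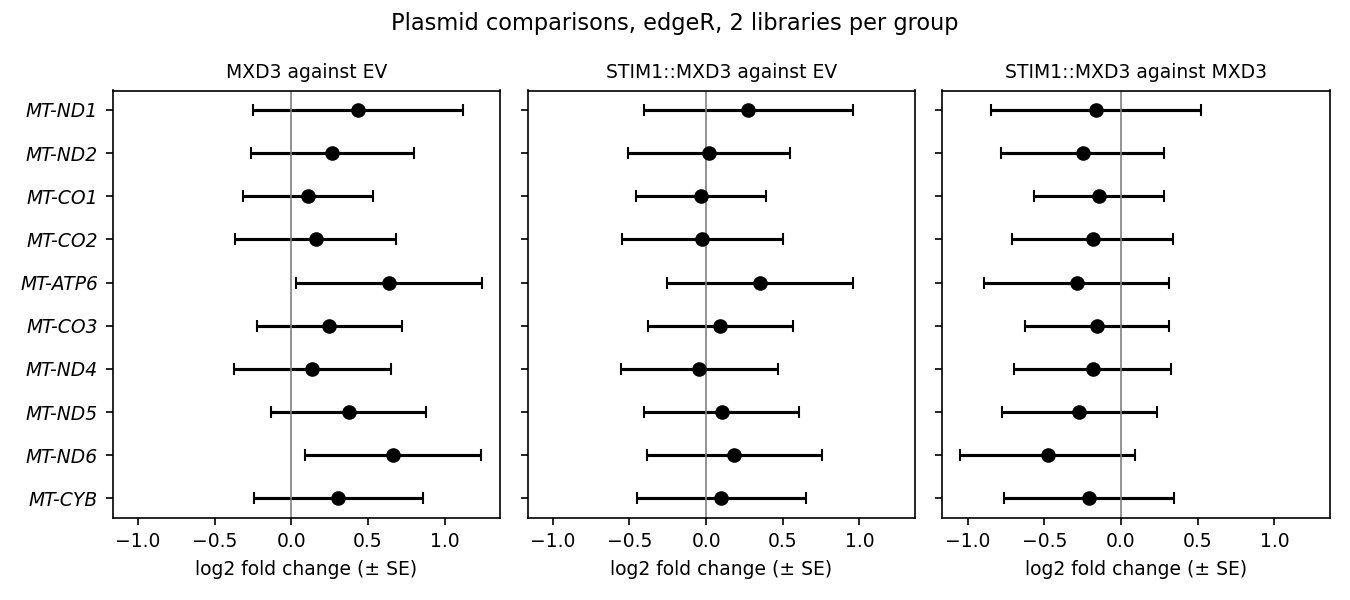
Log2 fold change of each of the 10 members (horizontal axis) in the 3 plasmid comparisons, with bars for the SE from edgeR over 2 libraries per group. The values with MXD3 run from 0.11 to 0.66 with SEs of 0.42 to 0.68, and no member passed the test in any panel.

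The direction of the plasmid difference depended on the replicate number. In replicate 1, 0 of 10 members were higher with MXD3 than with EV, and their log2 differences ran from -1.18 to -0.78. In replicate 2, 10 of 10 were higher, by 1.13 to 1.73. STIM1::MXD3 against EV did the same, with log2 differences from -0.95 to -0.66 in replicate 1 and from 0.81 to 1.30 in replicate 2. Between the constructs the members were 0.05 to 0.27 higher with STIM1::MXD3 in replicate 1 and from -0.71 to -0.28 in replicate 2. Each of these values compares 1 library with 1 library and has no error of its own. The EV library of replicate 1 and the construct libraries of replicate 2 thus formed the high set for all 10 genes.

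Seen within each plasmid, the summed members changed from replicate 1 to replicate 2 by a log2 ratio of -0.98 in EV, 1.34 with MXD3 and 0.78 with STIM1::MXD3. In EV the members ran from -1.26 (MT-ND4) to -0.60 (MT-ND5). With MXD3 they ran from 1.01 (MT-CO1) to 2.01 (MT-ND1), and with STIM1::MXD3 from 0.50 (MT-CO1) to 1.5 (MT-ND1). Fitted over all 6 libraries with the plasmid as a term, replicate 2 against replicate 1 gave 1 of 10 members past the threshold, beside 29.2% of all genes called, a share above that of the members. That gene was MT-ND1, 0.99 ± 0.31 (SE) on the log2 scale (adjusted p = 0.0261 by edgeR, adjusted over all genes tested). It was higher in replicate 2 in 2 of the 3 plasmids. DESeq2 gave an adjusted p of 0.257 for MT-ND1, so that call rests on the tool, and it was also lost without STIM1::MXD3 replicate 1 (adjusted p = 0.253) or without STIM1::MXD3 replicate 2 (adjusted p = 0.0860). In the 4 construct libraries alone, a choice made after seeing the data, all 10 members were called, with a median log2 fold change of 1.22, beside 29.5% of all genes. That fit has 1 residual degree of freedom, so its error rests on the spread borrowed from other genes. The replicate change in EV was also compared with that in the constructs, as an interaction term chosen after its sign had been seen, with MXD3 and STIM1::MXD3 as the 2 libraries per replicate number of 1 arm. The log2 difference, EV minus constructs, ran from -2.40 (MT-ND1) to -1.76 (MT-CO3), and edgeR called 10 of 10 members, beside 0.551% of all genes. Its SEs of 0.17 to 0.19 took no account of a member's own spread, as the fit has 1 residual degree of freedom and the estimated weight of the other genes was infinite. The 2 constructs themselves differed by 0.43 to 0.83 in their replicate change. DESeq2 gave SEs of 0.22 to 0.90 and called 2 of 10, MT-ND1 and MT-ND5, beside 0.136% of all genes. The call of the other 8 thus rests on the tool.

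**Figure D4:**
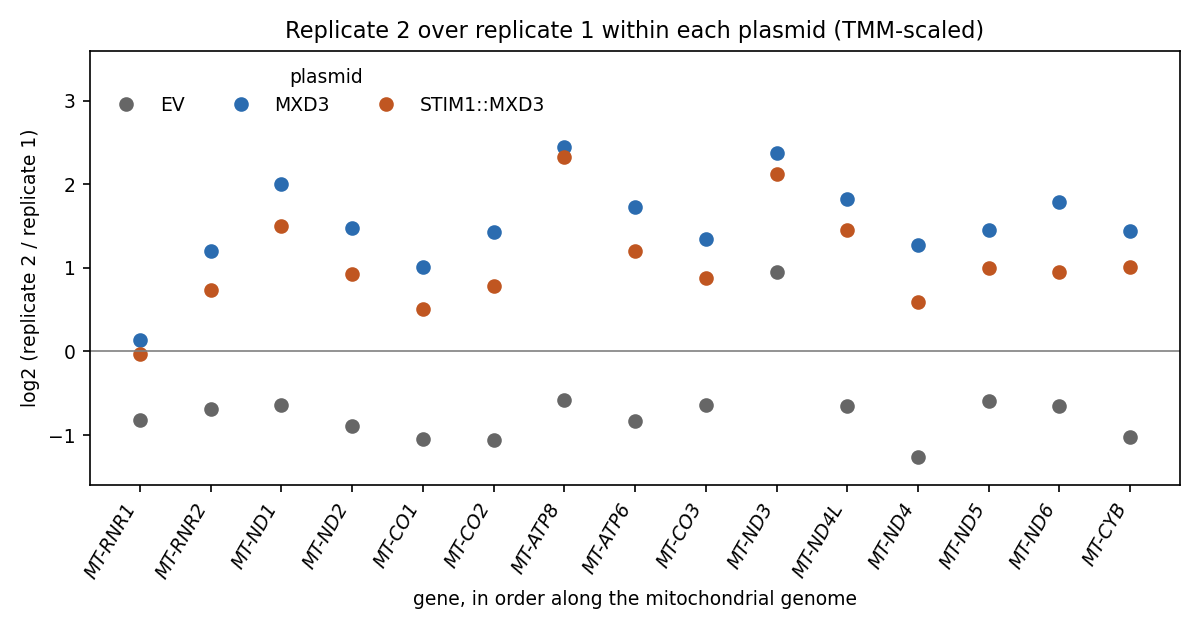
Log2 ratio of replicate 2 to replicate 1 (TMM-scaled, vertical axis) of 15 mitochondrially encoded genes in genome order, with 1 point per plasmid. The 10 members lie between -1.26 and -0.60 in EV and between 0.50 and 2.01 in both construct groups, while MT-ND3 is above 0 in all 3 plasmids.

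This movement was large beside that of other genes. The SD within groups of the log2 level was 0.63 for MT-CO1 to 1.06 for MT-ND1, against a median of 0.16 over the 10250 genes with a mean of at least 5 CPM. All 10 members lay between the 98.3rd and the 99.8th percentile of those genes. The 79 nuclear-encoded subunits of the same complexes had a summed level of 12050 to 13341 CPM in the 6 libraries, a 1.11-fold range, while the summed level of the members ran from 11863 to 29995 CPM, a 2.53-fold range. The members' sum was thus 0.905 to 2.45 times that of the nuclear-encoded subunits.

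Relative to their own sum, the members changed with the replicate number in a like way in each plasmid. MT-ND1 took 2.01% of the members' counts in replicate 1 and 2.53% in replicate 2 of EV, 1.78% and 2.83% with MXD3, and 1.83% and 3.02% with STIM1::MXD3. MT-ATP6 went from 5.52% to 6.11%, from 6.22% to 8.17% and from 5.84% to 7.84% in the same groups. MT-CO1 went the other way, from 23.5% to 22.4%, from 24.9% to 19.9% and from 24.8% to 20.5%, as did MT-ND4, from 21.7% to 17.8%, from 19.8% to 18.9% and from 20.9% to 18.3%. In all, 6 members had a higher and 2 a lower share in replicate 2 of all 3 plasmids, while MT-CO2 and MT-CYB went both ways. Among the 6, MT-CO3 hardly moved with MXD3, from 15.01% to 15.08%. So the level of these transcripts relative to all counts moved in opposite directions in EV and the constructs. The make-up of the pool moved in 1 direction for 8 of 10. Shares of 1 sum depend on each other, and no test was made of them.

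The files also held 5 mitochondrially encoded genes outside the 10. MT-ND3, another complex I subunit, differed from the members in that it was higher in replicate 2 of every plasmid, at 165 and 319 CPM in EV, 124 and 643 CPM with MXD3 and 127 and 553 CPM with STIM1::MXD3. Its replicate log2 fold change was 1.82 ± 0.18 (SE; adjusted p = 6.64e-06, edgeR quasi-likelihood test). MT-ATP8, whose end overlaps MT-ATP6, had 1.44 ± 0.40 (SE; adjusted p = 0.0127, edgeR), and MT-ND4L, whose end overlaps MT-ND4, had 0.91 ± 0.30 (SE; adjusted p = 0.0310, edgeR), with both lower in EV replicate 2. DESeq2 did not call MT-ATP8 (adjusted p = 0.199) or MT-ND4L (adjusted p = 0.261), and it called MT-ND3. The ribosomal RNAs have no long tail and were not called in the replicate fit over all 6 libraries. The interaction term described above passed the threshold for all 5 genes in edgeR, and in DESeq2 for all but MT-RNR2. MT-RNR2 was high in the same libraries as the members, with 3708 CPM in replicate 1 and 2298 CPM in replicate 2 of EV, while MT-RNR1 stayed between 149 and 262 CPM over all libraries. Against the plasmids 0 of these 5 were called. Of the 10 MTRNR2L genes, nuclear copies related to MT-RNR2, the most counted was MTRNR2L8 with 12 to 36 counts per library.

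MT-ND3, MT-ATP8 and MT-ND4L are the 3 shortest of the 13 protein-coding genes on this genome. Lengths here are those of the annotated genes. MT-ATP8 and MT-ND4L share bases with a longer neighbour, so their lengths need not be those of a messenger RNA. Over the 13, Spearman's rho between annotated length and the replicate log2 ratio relative to the members' sum was -0.44 in EV, -0.74 with MXD3 and -0.63 with STIM1::MXD3, as a description of points that share libraries, overlapping bases and a sum. MT-ND5, the longest, went against this order, with ratios of 0.12 to 0.38. Over 10007 nuclear genes with a mean of at least 5 CPM, rho between exon length and the replicate log2 ratio was -0.06, -0.08 and -0.06 in the same order of plasmids. Genes of up to 1000 bases had a median log2 ratio of 0.06 in EV, 0.09 with MXD3 and 0.08 with STIM1::MXD3, and genes over 8000 bases -0.04, -0.07 and -0.10. The part of length in the members' values was not tested.

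**Figure D5:**
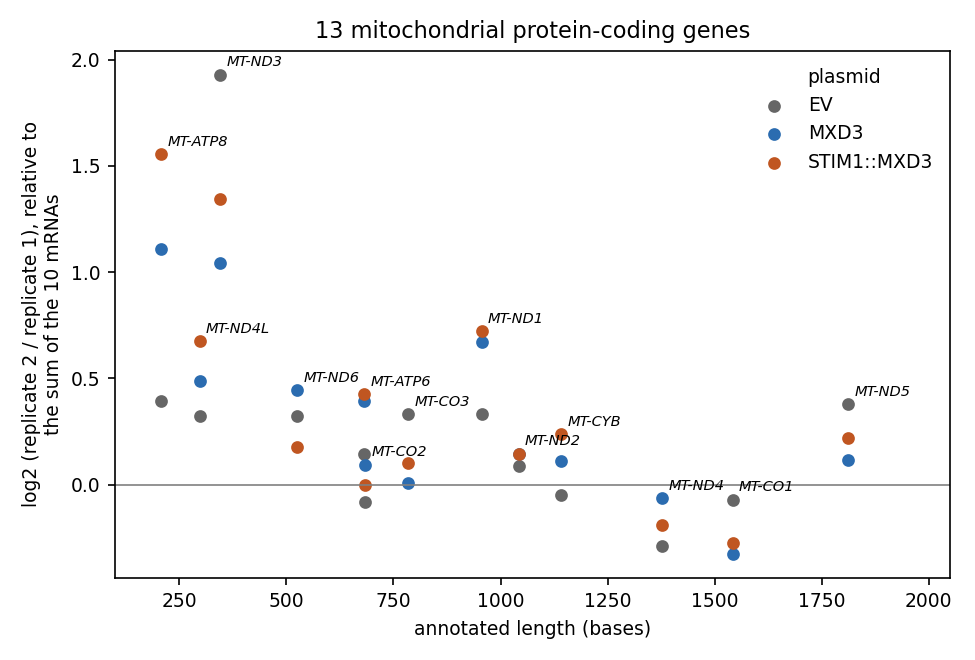
Log2 ratio of replicate 2 to replicate 1 relative to the sum of the 10 members (vertical axis) against annotated length in bases, for the 13 mitochondrial protein-coding genes, with 1 point per plasmid. MT-ND3 and MT-ATP8, at 346 and 207 bases, have the highest ratios, and MT-CO1 and MT-ND4 lie below 0 in all 3 plasmids.

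Nuclear genes that transcribe the mitochondrial genome were looked at next. Of 9 listed genes, edgeR called 0 in each plasmid comparison, and 0 had an unadjusted p under 0.05. TFAM, which packages and activates mitochondrial DNA, was at 80.0 and 96.1 CPM in EV, 96.5 and 104 CPM with MXD3 and 95.8 and 106 CPM with STIM1::MXD3. POLRMT, the mitochondrial RNA polymerase, was at 172 and 157 CPM, 188 and 151 CPM, and 170 and 159 CPM. Neither followed the members, since TFAM was higher and POLRMT lower in replicate 2 of all 3 plasmids. In the replicate fit 3 of 9 rose, among them TFB1M, a methyltransferase of the mitochondrial ribosomal RNA (0.43 ± 0.13 (SE) on the log2 scale), and 1 fell, MTERF3 (-0.46 ± 0.11 (SE)), beside the same 29.2% of all genes.

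Nuclear-encoded subunits were called in 0 of 79 cases in each plasmid comparison, also at an unadjusted p under 0.05. Their median log2 fold change was -0.12 with MXD3, -0.03 with STIM1::MXD3 and 0.09 between the constructs, and 13, 32 and 74 of 79 were above 0. With the replicate block 0 were called, and 18, 1 and 5 had an unadjusted p under 0.05. In the replicate fit 28 rose and 15 fell, 54.4% of the 79, beside 29.2% of all genes called. With the filter set at a mean of at least 5 CPM, that fit called 4044 of 10252 genes. Complex I had 12 up and 5 down of 37, with NDUFS5 at 0.52 ± 0.07 (SE) and NDUFS7, which carries an iron-sulphur cluster, at -0.52 ± 0.07 (SE). Complex II, which has no mitochondrially encoded subunit, had 0 up and 2 down of 4, SDHD at -0.31 ± 0.07 (SE) and SDHB at -0.28 ± 0.07 (SE). Complex III had 4 up and 2 down of 9, with UQCRB at 0.45 ± 0.07 (SE). Complex IV had 6 up and 1 down of 11, with COX7C at 0.48 ± 0.07 (SE), and complex V had 6 up and 5 down of 18, with ATP5IF1, an inhibitor of ATP synthase, at 0.57 ± 0.07 (SE) and ATP5F1D, the delta subunit of the enzyme, at -0.67 ± 0.07 (SE). Unlike the members, UQCRB was higher in replicate 2 of all plasmids, at 174 and 236 CPM in EV, 147 and 215 CPM with MXD3 and 169 and 219 CPM with STIM1::MXD3.

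The remaining mitochondrial lists gave 0 calls in each plasmid comparison, with or without the replicate block. In the replicate fit, which called 29.2% of all genes, mitochondrial DNA maintenance had 4 up and 2 down of 18. TWNK, the helicase that unwinds mitochondrial DNA, was at 0.53 ± 0.11 (SE) in that fit. RNA processing had 2 up and 8 down of 30, with GRSF1, a protein of mitochondrial RNA granules, at -0.40 ± 0.07 (SE). Translation factors had 1 up and 2 down of 14, nuclear regulators 0 up and 3 down of 8 tested, with GABPB1 at -0.44 ± 0.09 (SE), and protein quality control 1 up and 1 down of 12, with the chaperonin partner HSPE1 at 0.44 ± 0.08 (SE). In the plasmid comparisons FASTKD2, which binds mitochondrial RNA, had the smallest unadjusted p of the RNA processing list, with 0.42 ± 0.15 (SE) for MXD3 against EV (adjusted p = 0.999, edgeR).

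Other features of the libraries also differed by replicate number. Of 18 K562 markers 1 rose and 10 fell in replicate 2, beside 29.2% of all genes called. The falls were led by the globin gene HBA1 at -1.14 ± 0.08 (SE) on the log2 scale and HBZ at -0.90 ± 0.07 (SE). In the plasmid comparisons edgeR called 0 of these 18 markers, but with the replicate block it called HBZ, an embryonic globin gene, at 0.40 ± 0.08 (SE) for MXD3 against EV (adjusted p = 0.0482). HBA1 was lower in replicate 2 of every plasmid, from 67.2 to 34.4 CPM in EV, from 88.4 to 38.6 CPM with MXD3 and from 71.8 to 29.8 CPM with STIM1::MXD3, an order that the members did not share in EV. Of the 6 RNAs used as a sign of RNA quality, RN7SL1, the RNA of the signal recognition particle, which is not polyadenylated, rose by 2.21 ± 0.40 (SE) and the nuclear RNA MALAT1 had -0.47 ± 0.07 (SE). RN7SL1 was at 3.75 and 20.8 CPM in EV, 12.99 and 18.7 CPM with MXD3 and 1.33 and 22.4 CPM with STIM1::MXD3. The summed level of the 6 was 369 and 467 CPM in EV, 452 and 501 CPM with MXD3 and 354 and 363 CPM with STIM1::MXD3. Of the 11 tested markers of other cell types 0 rose and 3 fell, beside the same 29.2% of all genes called. Their part in the members' values was not tested.

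The members moved together across the 6 libraries. Pearson's r of each with their summed level, on the log2 scale, was 0.945 (MT-ND1) to 0.998 (MT-CO2), each sum holding the member itself. Among 3524 nuclear genes with a mean of at least 5 CPM and an SD of at least 0.2, the most like was C1RL-AS1 (r = 0.987), at 6.40 and 4.05 CPM in EV, 4.14 and 6.53 CPM with MXD3 and 4.38 and 5.85 CPM with STIM1::MXD3. This RNA is antisense to C1RL, and without strand the reads of the pair cannot be told apart. AHSA2P (r = 0.949), GPRASP2 (0.940) and GOLGA1 (0.939) followed. The least like were XKR3 (-0.913) and GPRC5C (-0.910), with XKR3 at 7.23 and 8.36 CPM in EV, 8.36 and 5.71 CPM with MXD3 and 9.10 and 7.03 CPM with STIM1::MXD3. With 6 libraries and so many genes, such values describe these libraries only.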

How the data were processed

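RNA from K562 cells in 3 plasmid groups of 2 libraries was sequenced after poly(A) selection. The authors deposited unnormalised read counts for each gene, 1 table for each library, under NCBI Gene identifiers. The submitters' processing notes name HISAT2 2.2.1, featureCounts 2.0.1 and hg19. The annotation, the use of strand, and how overlaps and reads with several matches were counted are not given in the sources used here. Between 59.8% and 67.3% of low counts (1 to 39) were even numbers, so both ends of a pair may have been counted, and counts divided by 2 were tried. Of the 25702 identifiers, 92.2% matched a symbol. The 22 transfer RNA genes had no row.

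Genes passing filterByExpr (15431) were scaled by TMM. edgeR 4.0.16 (R 4.3.3) gave two-sided quasi-likelihood F tests, adjusted by Benjamini-Hochberg over all genes, and calls had an adjusted p under 0.05. The plasmid fits had 1 coefficient per group over all 6 libraries. The replicate fit added the replicate number to the group, and an interaction fit let its effect differ between EV and the constructs. The SE was the log2 fold change divided by the root of F, and log2 levels used a prior count of 2. DESeq2 1.42.0, other scalings, other filters, a replicate block and leaving out each library were alternatives. The code was tested on simulated data. No p was computed for sums over the members.

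Replicate numbers were taken as pairing the libraries on the evidence of the counts, not of the labels. Over all genes tested, the deviations from the group mean of libraries sharing a number had an r of 0.270 (EV and MXD3), 0.364 (EV and STIM1::MXD3) and 0.450 (MXD3 and STIM1::MXD3). No 2 libraries held identical values.

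Positions, lengths and sequences came from GRCh37 with GENCODE, which may differ from the mitochondrial sequence the authors aligned to. Nuclear copies were found with BLAST 2.17.0. The members and lists were chosen with earlier results of these data known, and the length comparison was added after seeing the data. Named genes were the mitochondrially encoded ones, MXD3 and STIM1, the members of each nuclear list with the smallest p, and the nuclear genes most and least like the members' sum.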

Additional observations from a re-analysis of the deposited data

Results flagged for a closer look

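The change from replicate 1 to replicate 2 had opposite signs in EV and in both construct groups. The summed members had a log2 ratio of -0.98 in EV, against 1.34 with MXD3 and 0.78 with STIM1::MXD3. The same was seen in each of the 10 members. In EV the log2 ratio was -0.64 for MT-ND1, -0.89 for MT-ND2, -1.26 for MT-ND4, -0.60 for MT-ND5 and -0.65 for MT-ND6. It was -1.05 for MT-CO1, -1.06 for MT-CO2, -0.65 for MT-CO3, -0.83 for MT-ATP6 and -1.03 for MT-CYB. In the construct groups the 20 values were all above 0, from 0.50 to 2.01. An interaction term, chosen after these signs were seen, passed the threshold for 10 of 10 members in edgeR, beside 0.551% of all genes. In DESeq2 it passed for 2 of 10 (MT-ND1 and MT-ND5), beside 0.136% of all genes. Both fits had 1 residual degree of freedom. No test was made of the sum. All but MT-ND6, the minus-strand gene, lie on the same strand and can share precursors. All 10 share their libraries, so they are not 10 separate observations.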

How the results depend on the processing

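In the plasmid comparisons 0 of 10 members were called under every alternative run. The log2 fold changes of all members turned when single libraries were left out. For MXD3 against EV they ranged from -0.48 to 1.27 for MT-ATP6, -0.49 to 0.73 for MT-CO1, -0.73 to 0.79 for MT-CO2, -0.58 to 0.78 for MT-CO3, -0.60 to 0.91 for MT-CYB, -0.90 to 1.13 for MT-ND1, -0.66 to 0.84 for MT-ND2, -0.64 to 0.90 for MT-ND4, -0.54 to 0.94 for MT-ND5 and -0.50 to 1.31 for MT-ND6. For STIM1::MXD3 against EV they ranged from -0.38 to 0.83 for MT-ATP6, -0.46 to 0.59 for MT-CO1, -0.47 to 0.60 for MT-CO2, -0.42 to 0.47 for MT-CO3, -0.50 to 0.70 for MT-CYB, -0.67 to 0.84 for MT-ND1, -0.52 to 0.53 for MT-ND2, -0.54 to 0.72 for MT-ND4, -0.49 to 0.52 for MT-ND5 and -0.38 to 0.59 for MT-ND6. For STIM1::MXD3 against MXD3 they ranged from -1.03 to 0.83 for MT-ATP6, -0.57 to 0.46 for MT-CO1, -0.74 to 0.71 for MT-CO2, -0.69 to 0.68 for MT-CO3, -0.82 to 0.70 for MT-CYB, -1.12 to 1.18 for MT-ND1, -0.82 to 0.69 for MT-ND2, -0.70 to 0.60 for MT-ND4, -0.87 to 0.64 for MT-ND5 and -1.12 to 0.68 for MT-ND6. With total counts in place of TMM, MT-CO1 and MT-CO2 had 0.0024 and 0.015 for STIM1::MXD3 against EV. The difference in summed share, in percentage points, was 0.39 for MXD3 minus EV (-0.56 to 1.33 with 1 library left out), 0.091 for STIM1::MXD3 minus EV (-0.45 to 0.64) and -0.30 for STIM1::MXD3 minus MXD3 (-1.24 to 0.65). It moved by less than the SD of a group under all denominators tried.

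With the replicate block, MT-CO2 had -0.0044 for MXD3 against EV, and for STIM1::MXD3 against EV MT-CO3 had -0.047, MT-CYB -0.073, MT-ND1 -0.070, MT-ND2 -0.14 and MT-ND5 -0.065. DESeq2 with the block gave -0.0072 for MT-CO2 with MXD3, and with STIM1::MXD3 -0.054 for MT-CO3, -0.081 for MT-CYB and MT-ND1, -0.15 for MT-ND2, -0.075 for MT-ND5 and -0.015 for MT-ND6. The mean difference in summed share within a replicate number stayed at 0.39, 0.091 and -0.30 percentage points. All genes called rose with the block to 45, 3 and 1 for MXD3 against EV, the fusion against EV and the fusion against MXD3, and to 243, 29 and 11 in DESeq2 with it. The block changed no call of a member and, in the lists, added HBZ for MXD3 against EV. The members' median went from 0.29 to 0.066 with MXD3 (0.063 in DESeq2 with the block). DESeq2 without the block called 3, 3 and 1 genes, and with no filter on low counts edgeR called 2 for STIM1::MXD3 against EV and 1 between the constructs. Leaving out single libraries gave 1 to 2 genes for MXD3 against EV.

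In the replicate comparison 4499 of 15431 genes were called in the main fit and 4308 with DESeq2. With counts divided by 2 it was 4647 of 14361 genes, and with no filter on low counts 4825 of 20078. In the 4 construct libraries alone 4469 of 15149 were called. The count of members called moved most in this comparison. It was 0 with DESeq2, 3 with counts divided by 2, 10 with no filter on low counts and 10 in the 4 construct libraries alone, and 0 to 10 with single libraries left out. It was 10 without EV replicate 1 or EV replicate 2, 3 without MXD3 replicate 1 or MXD3 replicate 2, and 0 without STIM1::MXD3 replicate 1 or STIM1::MXD3 replicate 2. All genes called were 2580 to 4424 in these fits, against 4499. Leaving out 1 of 2 libraries assumes that the lone library varies like the other groups, and a lone library adds nothing to the replicate term. MT-CO1 ranged from -0.26 to 0.76, -0.13 to 1.10 for MT-CO2, -0.32 to 0.93 for MT-ND4 and -0.41 to 0.050 for MT-RNR1, and MT-RNR1 had 0.052 in the 4 construct libraries. For the difference in replicate change between EV and the constructs, DESeq2 called 2 members against 10 in edgeR and 21 genes against 85. The cause of these changes was not tested. Depth was high for the members, with at least 13543 counts in every library except for MT-ND6 (1749 to 5696). With 2 libraries per group, SEs of 0.42 to 0.68 on the log2 scale limit what the plasmid comparisons can show.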

Other observations

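Ratios between mitochondrial transcripts of the same library, which do not depend on library size, differed between replicate numbers. MT-CO1 had 11.7 and 8.86 times the counts of MT-ND1 in the 2 EV libraries, 14.03 and 7.04 times with MXD3 and 13.6 and 6.79 times with STIM1::MXD3, with replicate 1 given first. MT-ND3 had 0.346 and 1.05 times the counts of MT-ND1 in EV, 0.586 and 0.759 times with MXD3 and 0.514 and 0.791 times with STIM1::MXD3. Between the 2 ribosomal RNAs, the MT-RNR1 count was 7.06% and 6.48% of the MT-RNR2 count in EV, 8.62% and 4.11% with MXD3 and 7.07% and 4.16% with STIM1::MXD3. In these 3 ratios replicate 2 lay on the same side of replicate 1 in every plasmid. The MT-ND6 count as a share of the MT-ND5 count went both ways. It was 10.9% and 10.5% in EV, 11.1% and 13.9% with MXD3, and 11.6% and 11.3% with STIM1::MXD3. These values are given as a description, with 1 library for each plasmid and replicate number.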
